A study of Mus musculus with 8 samples.

Results

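The 34 genes described here mark B lymphocytes, the antibody-producing cells of the immune system, and were followed in RNA of mouse pancreatic islets. They make up 34 of the 22632 genes in the deposited table, and each of them has a row there. They were selected on their values in these same libraries, since most of them stood lower in the Tcf7 knockout-labelled than in the wild-type libraries at 8 weeks. That difference, and every comparison whose fold change uses the 8-week libraries, is therefore given as a description. Calls of limma, a linear model fitted over all genes, are printed there beside the share of all genes called, and nothing is read from them. The 20-week genotype comparison was the one read as a test. Its spread was estimated over all 8 libraries, those of 8 weeks included.

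Islets of C57BL/6 mice were profiled as total RNA after depletion of ribosomal RNA, in 4 groups of 2 libraries. Wild-type (Tcf7 +/+) and littermate Tcf7-/- animals were sampled at 8 weeks on a low-fat diet with 10% fat and at 20 weeks on a high-fat diet with 45% fat. Age and diet changed together and cannot be told apart, and the treatment text of the labels names regular chow, against low-fat in the diet field. Values are in RPM, reads scaled by the authors to a fixed library total, and are given below for replicates 1 and 2 of a group in that order. Replicate numbers only name the libraries.

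Total depth was 58.7 to 191 M reads per library, of which 32.7 to 103 M fell in listed genes, so that 1 read was worth 0.00523 to 0.0170 RPM. Tcf7 itself, which encodes the transcription factor TCF-1, was at 0.277 and 0.381 RPM in 8-week wild type and at 0.512 and 0.519 RPM in their knockout-labelled littermates. At 20 weeks its values were 1.58 and 0.991 RPM for wild type and 4.56 and 2.56 RPM for knockout-labelled islets. The values of the targeted gene went against the labels at both ages, so these libraries are called knockout-labelled throughout. The deleted part of the gene was not given in the sources used here. Islet endocrine genes summed to between 41191 and 63248 RPM in the 8 libraries, and B lymphocyte genes were a small part of the RNA.

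A B lymphocyte senses antigen through its receptor, a membrane antibody paired with the signalling chains Cd79a and Cd79b. Kinases and adaptors inside the cell carry the signal on, and co-receptors raise or damp it. Pax5, Ebf1 and their partners hold the cell in its lineage, and chemokine receptors such as Cxcr5 draw it into lymphoid follicles. In the pancreas B cells are found in small numbers, in peri-pancreatic lymph nodes and in infiltrates around islets. Not all members belong to B cells alone. From background knowledge Bach2, Cd40 and Hvcn1 are also expressed by islet endocrine cells, and Ebf1, Cxcl13 and Cr2 by stromal or follicular dendritic cells. Btla, Ltb, Irf4, Ikzf3 and Cd37 are also expressed by T cells, and Cd83, Wdfy4, Irf4, Spib, Cd37, Cd40, Btk, Hvcn1 and Cd72 by myeloid or dendritic cells.

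Promoter sequences were looked at because several members are themselves B lineage transcription factors. RefSeq promoters on the build GRCm38.p6, 300 bases each around a gene's start, were available for 26 of the 34 members, as 29 promoters. On both strands, the octamer ATGCAAAT of Oct factors was present in 1.74% of all 32851 promoters and in 1 member, Blnk. The early B cell factor pattern TCCCNNGGG was present in 6.56% of all promoters and in 1 member, Cd22, where its matches on the opposite strands overlap. GAGGAAGT, of the type bound by PU.1 and Spi-B, was present in 3.20% of all promoters and in 4 members, which were Btla, Cd37, Cd72 and Fcrl1. CTTTGAT, of the type bound by TCF and LEF factors such as the product of Tcf7, was present in 3.73% of all promoters and in 1 member, Fcrl1. No motif overlapped another motif in these promoters. A match describes letters in a window and is not a bound site. The promoters of the 3 members with a match and the highest mean RPM in 8-week wild type are shown, 5′ to 3′ on the gene's strand, with the matching letters in capitals. They lie at chr19:40994172-40994471 on the minus strand for Blnk, at chr16:45224087-45224386 on the plus strand for Btla and at chr7:30878979-30879278 on the minus strand for Cd22.
Blnk: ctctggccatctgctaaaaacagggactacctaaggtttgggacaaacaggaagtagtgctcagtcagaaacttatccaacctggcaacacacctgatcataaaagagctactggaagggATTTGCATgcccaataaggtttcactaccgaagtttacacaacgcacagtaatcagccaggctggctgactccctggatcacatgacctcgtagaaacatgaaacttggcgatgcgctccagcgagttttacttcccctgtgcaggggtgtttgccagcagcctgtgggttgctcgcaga
Btla: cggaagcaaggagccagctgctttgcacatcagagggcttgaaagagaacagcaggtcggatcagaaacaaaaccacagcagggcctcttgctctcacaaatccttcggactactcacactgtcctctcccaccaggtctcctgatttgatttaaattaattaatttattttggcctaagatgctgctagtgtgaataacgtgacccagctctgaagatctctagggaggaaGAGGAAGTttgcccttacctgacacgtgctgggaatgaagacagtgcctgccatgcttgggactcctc
Cd22: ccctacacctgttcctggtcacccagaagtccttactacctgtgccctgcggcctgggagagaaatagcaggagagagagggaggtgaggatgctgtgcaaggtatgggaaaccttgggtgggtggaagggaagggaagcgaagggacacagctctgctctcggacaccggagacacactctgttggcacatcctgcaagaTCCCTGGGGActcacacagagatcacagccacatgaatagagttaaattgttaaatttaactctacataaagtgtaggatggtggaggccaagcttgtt
The first capital stands at position -130 from the start in Blnk, -18 in Btla and -49 in Cd22. The octamer in Blnk reads on the reverse strand.

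Many members were highest in 8-week wild type and lower in the other groups. In 5 members, Cd72, Bach2, Ikzf3, Hvcn1 and Wdfy4, all 4 libraries of 20 weeks were above all 4 of 8 weeks. The share of all genes with that order was not counted. Within a genotype, both 20-week libraries were above both of 8 weeks for 37.8% of all genes in wild type and 31.5% in knockout-labelled islets. At 8 weeks 23 of the 34 members had a wild-type mean at least 5-fold above the knockout-labelled mean, 4 lay between 2-fold and 5-fold, and 7 lay within 2-fold. Of those 23 genes, 20 were also under 0.5 RPM in all 4 libraries of 20 weeks, and the other 3 were Cr2, Hvcn1 and Wdfy4. Under 0.5 RPM is not absent, since Fcer2a, Cxcr5 and Pou2f2 were still detected in every 20-week library. The 7 genes within 2-fold were Cd79a, Fcrla, Blnk, Cd83, Cd72, Bach2 and Ikzf3. In bulk RNA, fewer cells of a type and less RNA per cell cannot be told apart.

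**Figure D1:**
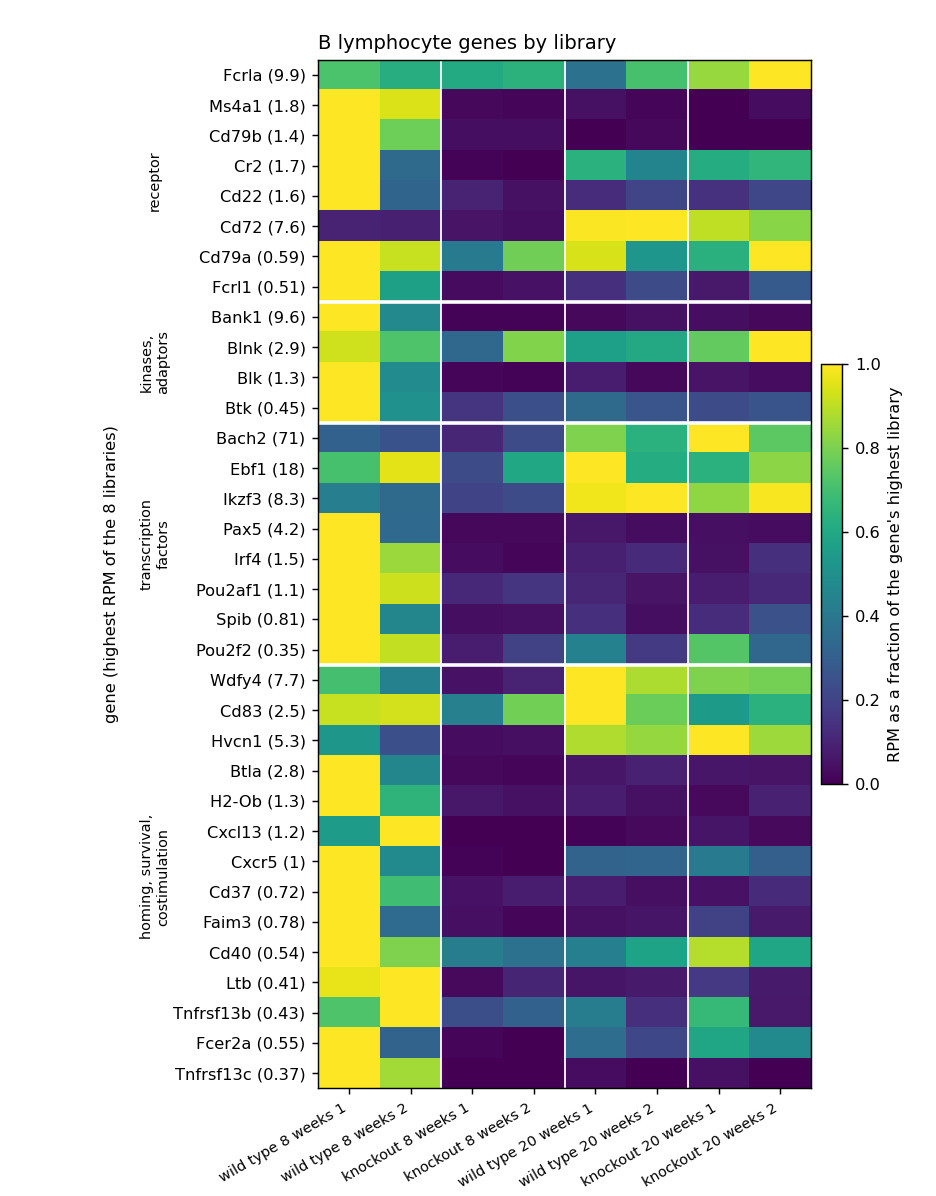
Each row is a member, grouped by role, and each column a library; the colour gives the gene's RPM as a fraction of its highest library, whose RPM stands in brackets. Many rows, such as Bank1, Ms4a1 and Cd79b, are filled in the 2 wild-type libraries of 8 weeks alone, while Cd72, Bach2, Ikzf3, Hvcn1 and Wdfy4 are filled at 20 weeks.

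The receptor group was split in the same way. Cd79b, a signalling chain of the receptor, was at 1.44 and 1.12 RPM in 8-week wild type and at 0.0523 and 0.0549 RPM in 8-week knockout-labelled islets. At 20 weeks it was at 0 and 0.0296 RPM in wild type and at 0 in both knockout-labelled libraries, which is 2 reads in wild type and 0 in the others. Only the 8-week wild-type libraries held more than a trace of it. Its partner Cd79a (ENSMUSG00000003379) did not share this pattern, at 0.590 and 0.542 RPM in 8-week wild type, 0.240 and 0.464 RPM in 8-week knockout-labelled, 0.556 and 0.311 RPM in 20-week wild type and 0.375 and 0.591 RPM in 20-week knockout-labelled libraries. The 20-week libraries overlapped the 8-week wild type for Cd79a, and the ratio of the 8-week means was 1.61. The chains of the receptor thus went apart, and Cd79a was present where Cd79b was not.

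Ms4a1, which encodes CD20, was at 1.82 and 1.73 RPM in 8-week wild type, and at 0.0366 and 0.0244 RPM in knockout-labelled islets of that age. At 20 weeks it was at 0.0828 and 0.0296 RPM in wild type and at 0 and 0.0576 RPM in knockout-labelled islets. Its 8-week means differed 58.2-fold, with both wild-type libraries far above the other 6. Cd22, an inhibitory co-receptor, was at 1.56 and 0.503 RPM in 8-week wild type and between 0.0671 and 0.331 RPM in the other 6 libraries. Fcrl1, a co-receptor that raises signalling, was at 0.509 and 0.290 RPM there and between 0.0157 and 0.144 RPM in the other 6. Neither gene overlapped between 8-week wild type and the rest.

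Cr2, the complement receptor CD21, was high in 3 of the 4 groups. It was at 1.73 and 0.600 RPM in 8-week wild type, 1.11 and 0.784 RPM in 20-week wild type and 1.07 and 1.14 RPM in 20-week knockout-labelled libraries. In the 8-week knockout-labelled libraries it was at 0.0157 and 0 RPM. The 8-week groups held 287 and 3 reads, a pooled ratio of 127 with a 95% exact interval of 43.1 to 621 for counting error only. Besides B cells, follicular dendritic cells express this gene.

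Cd72 and Fcrla were the receptor genes with other orders. Cd72, an inhibitory co-receptor, was at 0.742 and 0.665 RPM in 8-week wild type and at 0.418 and 0.293 RPM in 8-week knockout-labelled islets. It was at 7.61 and 7.65 RPM in 20-week wild type and at 6.91 and 6.30 RPM in 20-week knockout-labelled islets. All 4 libraries of 20 weeks were above all 4 of 8 weeks. Fcrla, an intracellular relative of the Fc receptors made in B cells, was at 7.12 and 6.19 RPM in 8-week wild type, 6.04 and 6.35 RPM in 8-week knockout-labelled, 3.70 and 7.03 RPM in 20-week wild type and 8.38 and 9.91 RPM in 20-week knockout-labelled libraries. The 8-week groups of Fcrla overlapped, and the 20-week knockout-labelled libraries were its 2 highest.

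Among the kinases and adaptors, Bank1 stood apart the most. Bank1 (ENSMUSG00000037922) is a scaffold that links the receptor to calcium release, and was at 9.64 and 4.55 RPM in 8-week wild type. It was at 0.105 and 0.110 RPM in 8-week knockout-labelled, 0.207 and 0.429 RPM in 20-week wild type and 0.341 and 0.202 RPM in 20-week knockout-labelled libraries. The 8-week means differed 66.2-fold, and the 20-week groups overlapped. Blk, a Src-family kinase, was at 1.31 and 0.632 RPM in 8-week wild type and between 0.0122 and 0.106 RPM in the other 6 libraries. Btk, the kinase mutated in X-linked agammaglobulinaemia in humans, was at 0.447 and 0.226 RPM there, against 0.0680 to 0.154 RPM in the other 6. For Blk and Btk, too, no other library reached the 8-week wild type. Blnk, an adaptor, was at 2.65 and 2.08 RPM in 8-week wild type, 0.972 and 2.32 RPM in 8-week knockout-labelled, 1.61 and 1.73 RPM in 20-week wild type and 2.18 and 2.87 RPM in 20-week knockout-labelled libraries. Its 8-week groups overlapped, unlike those of Bank1, Blk and Btk.

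The lineage transcription factors held some of the clearest contrasts. Pax5, which holds cells to the B lineage, was at 4.21 and 1.44 RPM in 8-week wild type and at 0.0836 and 0.0915 RPM in 8-week knockout-labelled islets. At 20 weeks it was at 0.278 and 0.148 RPM in wild type and at 0.170 and 0.144 RPM in knockout-labelled islets. The 8-week means differed 32.2-fold, and no other library reached the wild type of that age. Ebf1, its partner in early B cells, was at 12.7 and 17.3 RPM in 8-week wild type, 4.19 and 10.8 RPM in 8-week knockout-labelled, 18.02 and 11.1 RPM in 20-week wild type and 11.5 and 14.9 RPM in 20-week knockout-labelled libraries. Ebf1 differed 2.01-fold between the 8-week means, and its 20-week libraries overlapped 8-week wild type. Irf4, which drives plasma cell formation, was at 1.47 and 1.25 RPM in 8-week wild type and between 0.0244 and 0.202 RPM elsewhere. Pou2af1, the co-activator of Oct factors, was at 1.12 and 1.03 RPM there and between 0.0592 and 0.171 RPM elsewhere. Spib and Pou2f2 followed the same order, with 8-week ratios of 17.5 and 7.13.

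Bach2 and Ikzf3 were higher at 20 weeks than at 8 weeks. Bach2, a repressor that delays plasma cell formation, was at 22.0 and 18.003 RPM in 8-week wild type, 7.58 and 16.5 RPM in 8-week knockout-labelled, 57.4 and 45.4 RPM in 20-week wild type and 71.2 and 53.3 RPM in 20-week knockout-labelled libraries. Ikzf3, the lymphoid factor Aiolos, was at 3.56 and 2.87 RPM in 8-week wild type, 1.72 and 1.91 RPM in 8-week knockout-labelled, 8.13 and 8.31 RPM in 20-week wild type and 6.93 and 8.23 RPM in 20-week knockout-labelled libraries. For both genes all 20-week libraries were above all 8-week libraries, and the 8-week wild type was above the knockout-labelled group by less than 2-fold.

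**Figure D2:**
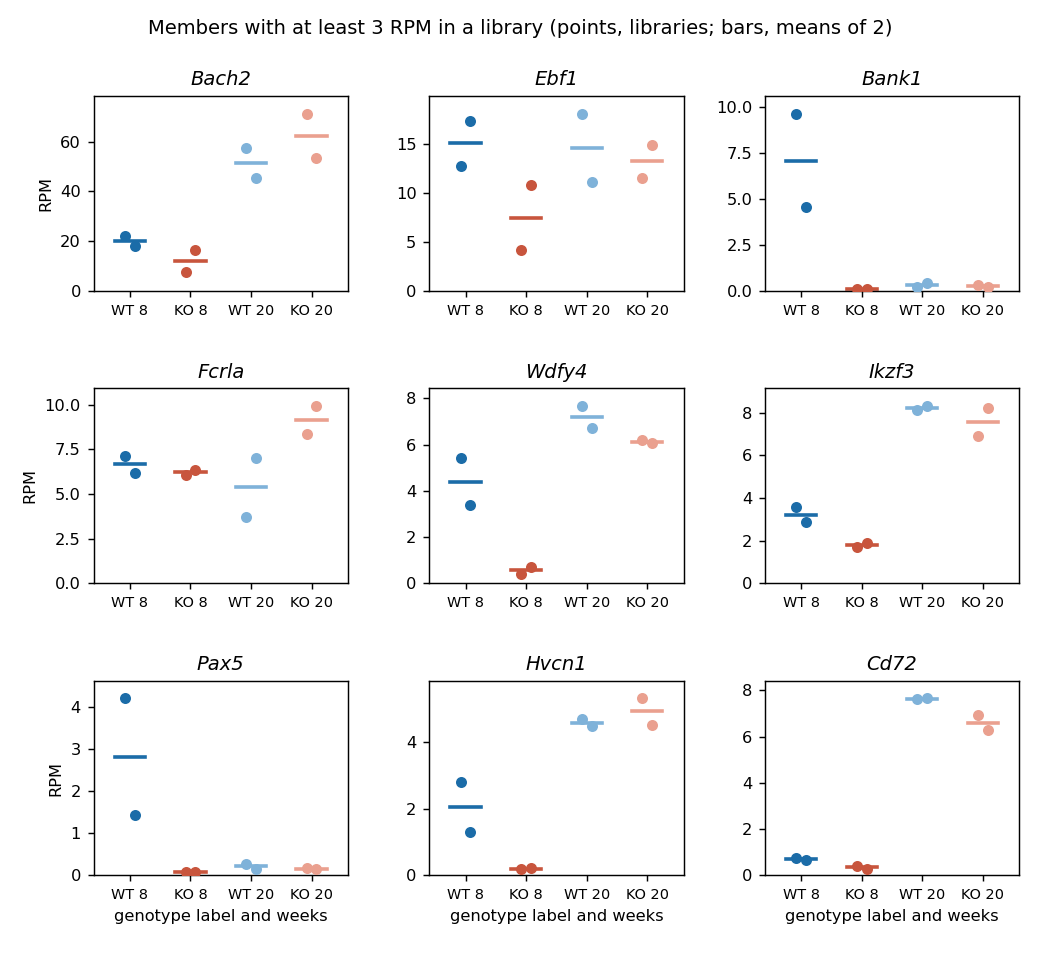
RPM of the 9 members with at least 3 RPM in a library, 1 panel per gene, by genotype label and age; points are libraries and bars are means of 2. Bank1 and Pax5 are high in 8-week wild type alone, Cd72, Bach2 and Ikzf3 are highest at 20 weeks, and Hvcn1 and Wdfy4 are low in 8-week knockout-labelled libraries alone.

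The genes of homing, survival and costimulation all had both 8-week wild-type libraries above both knockout-labelled libraries. Cxcl13, the chemokine that attracts B cells to follicles, was at 0.653 and 1.19 RPM in 8-week wild type and at 0 in both knockout-labelled libraries of that age. That is 257 reads against 0, at least 114-fold higher with a floor of 3 reads over the group. Its receptor Cxcr5 was at 1.001 and 0.477 RPM in 8-week wild type and at 0.0105 and 0 RPM in knockout-labelled islets, 186 reads against 2, a pooled ratio of 124 with an interval of 33.8 to 1030. At 20 weeks ligand and receptor went apart, with Cxcl13 at 0.0118 to 0.0681 RPM and Cxcr5 at 0.303 to 0.409 RPM over the 4 libraries.

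Of the receptors of the survival factor BAFF, Tnfrsf13c was at 0.366 and 0.316 RPM in 8-week wild type and at 0 in both knockout-labelled libraries of that age. With 90 reads against 0 it was at least 39.9-fold higher in wild type, with the same floor, and at 20 weeks it held 2 reads in wild type and 1 in knockout-labelled islets. Tnfrsf13b, the related receptor TACI, was at 0.313 and 0.432 RPM in 8-week wild type and at 0.105 and 0.134 RPM in knockout-labelled islets. Both receptors were below 8-week wild type at 20 weeks, where Tnfrsf13b ranged from 0.0288 to 0.289 RPM. Fcer2a, the IgE receptor CD23, held 88 against 2 reads at 8 weeks, a pooled ratio of 58.6 with an interval of 15.7 to 491. Unlike Tnfrsf13c it was present at 20 weeks, with 0.195 and 0.118 RPM for wild type and 0.323 and 0.259 RPM for knockout-labelled islets.

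Btla, an inhibitory receptor, was at 2.79 and 1.28 RPM in 8-week wild type and between 0.0488 and 0.252 RPM in the other 6 libraries. H2-Ob, a chain of the class II modulator H2-O, was at 1.27 and 0.826 RPM there and between 0.0341 and 0.115 RPM elsewhere. Faim3, a receptor for IgM, was at 0.778 and 0.271 RPM there and between 0.0122 and 0.153 RPM elsewhere. For these 3 genes 8-week wild type stood above every other library, and so it did for Cd37, a tetraspanin, and Ltb, which encodes lymphotoxin beta, with 8-week ratios of 13.4 and 15.0. Cd40, the receptor for T cell help, ranged from 0.201 to 0.536 RPM and Cd83, a marker of activated B and dendritic cells, from 1.09 to 2.50 RPM over the 8 libraries. Their 8-week ratios were 2.27 and 1.51, and their 20-week libraries overlapped the 8-week wild type.

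Hvcn1 and Wdfy4 were low in the 8-week knockout-labelled group and high in the other groups. Hvcn1, a voltage-gated proton channel, was at 2.81 and 1.30 RPM in 8-week wild type and at 0.183 and 0.214 RPM in 8-week knockout-labelled islets. At 20 weeks it was at 4.68 and 4.47 RPM in wild type and at 5.31 and 4.52 RPM in knockout-labelled islets. All 4 libraries of 20 weeks were above the 8-week wild type, and the 20-week groups overlapped. Wdfy4, needed by dendritic cells for cross-presentation, was at 5.42 and 3.38 RPM in 8-week wild type, 0.382 and 0.720 RPM in 8-week knockout-labelled, 7.67 and 6.73 RPM in 20-week wild type and 6.20 and 6.07 RPM in 20-week knockout-labelled libraries. Its knockout-labelled libraries of 8 weeks stood apart from the other 6.

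Counted over all members, both 8-week wild-type libraries were above both knockout-labelled ones for 32 of the 34, and the exceptions were Fcrla and Blnk. Of all 22632 genes in the table, 7.82% were lower in both knockout-labelled libraries and 7.28% were higher in both, against 0 members that were higher. The median difference on log2(RPM + 1), knockout-labelled minus wild type, was -0.70 over the 34 members and 0 over all genes. These counts use the comparison that chose the members, so nothing is read from them. The filter of at least 1 RPM in at least 2 libraries passed 17 members and stopped 17, and 7 of the 17 passed through 8-week wild type alone. Of the 17, limma with Benjamini-Hochberg adjustment called 8 lower in 8-week knockout-labelled islets and 0 higher, where it called 0.195% of the 13347 genes tested lower and 0.015% higher. The 8 were Bank1, Pax5, Ms4a1, Cd79b, Btla, Irf4, Hvcn1 and Wdfy4, with log2 fold changes from -2.79 ± 0.24 (limma SE) for Bank1 to -1.11 for Cd79b. The choice of members fixed these calls, and 6 of the 8, all but Hvcn1 and Wdfy4, passed the filter through 8-week wild type alone.

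The count of members called lower at 8 weeks changed when 1 library was left out. Such fits leave 1 library in a group, so their counts are not given. Without either wild-type library of 8 weeks 10 members were tested in place of 17. With the acinar list as a covariate 1 member was called lower. Of all 13347 genes tested 8 were called lower, against 26 without the covariate.

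Other cell types also differed between the 8-week groups. The 12 pan-leukocyte genes were all higher in wild type, summing to 41.2 and 49.4 RPM against 8.32 and 9.67 RPM. The 15 T cell genes summed to 4.42 and 6.54 RPM against 0.972 and 1.75 RPM, 13 of 15 being higher, and the defining genes Cd3d and Cd3e were at 0 in both knockout-labelled libraries and at most 0.123 RPM in wild type. The 13 myeloid and dendritic genes summed to 61.3 and 77.7 RPM against 39.8 and 38.2 RPM, with 7 of 13 higher. The 5 erythrocyte genes summed to 27.0 and 64.7 RPM against 14.1 and 16.4 RPM, all of them higher in wild type. The 30 genes of acinar cells, the enzyme-making cells around the islets, went the other way, from 3799 and 10755 RPM for wild type to 31055 and 15875 RPM for knockout-labelled islets, 26 of 30 being lower in wild type. Genes of lymph node stroma and high endothelium summed to 11.9 and 11.5 RPM for wild type and 11.1 and 13.6 RPM for knockout-labelled islets. Of these 9 genes 3 were higher and 1 lower in wild type. Lyve1, at 4.55 to 5.77 RPM, and Mfge8, at 4.48 to 7.73 RPM, held most of the sums. Lyve1 was the 1 gene lower in wild type. The 3 higher ones, Ccl21a, Madcam1 and Tnfsf11, were low, at no more than 0.259 RPM in any 8-week library. Of these, Ccl21a was at 0.0536 and 0.0774 RPM in wild type and at 0 in both knockout-labelled libraries. Ccl19, also at trace level, overlapped between the 8-week groups. The part of each of these cell types in the members' difference was not tested.

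The 2 wild-type libraries of 8 weeks did not hold the members alike. Replicate 1 was higher than replicate 2 for 29 of the 34 members (85.3%), with a median ratio of 1.28, and the ratio was above 2 for 11 members. Over 13219 tested genes with reads in both libraries the median ratio was 0.916, replicate 1 was higher for 25.2% and the ratio was above 2 for 0.772%. The 11 genes ranged up to 3.13 for Fcer2a, 3.09 for Cd22, 2.93 for Pax5 and 2.89 for Cr2, with Bank1 at 2.12. Ms4a1, Cd79b and Pou2af1, whose 8-week contrast was also large, had ratios of 1.05, 1.28 and 1.08. The 5 members below 1 were Cxcl13 at 0.550, Tnfrsf13b at 0.724, Ebf1 at 0.736, Ltb at 0.967 and Cd83 at 0.985.

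Other B cell genes had no such order as a list, and the difference between the lists was not tested. Over the 20 further B cell genes the median ratio was 0.908, with 9 of 20 higher in replicate 1, and over the 17 further receptor signalling genes it was 0.877, with 4 of 17 higher. Lists of other leukocytes had replicate 2 as the higher library. The median ratio was 0.750 for pan-leukocyte genes, with 1 of 12 higher in replicate 1, and 0.519 for T cell genes, with 2 of 15 higher. It was 0.762 for myeloid and dendritic genes, 0.421 for erythrocyte genes and 0.360 for acinar genes, and 1.02 for islet endocrine genes. Depth was 112 M reads in replicate 1 and 155 M in replicate 2. The ratios are a description of 2 libraries, and the labels do not say whether these came from separate animals.

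**Figure D3:**
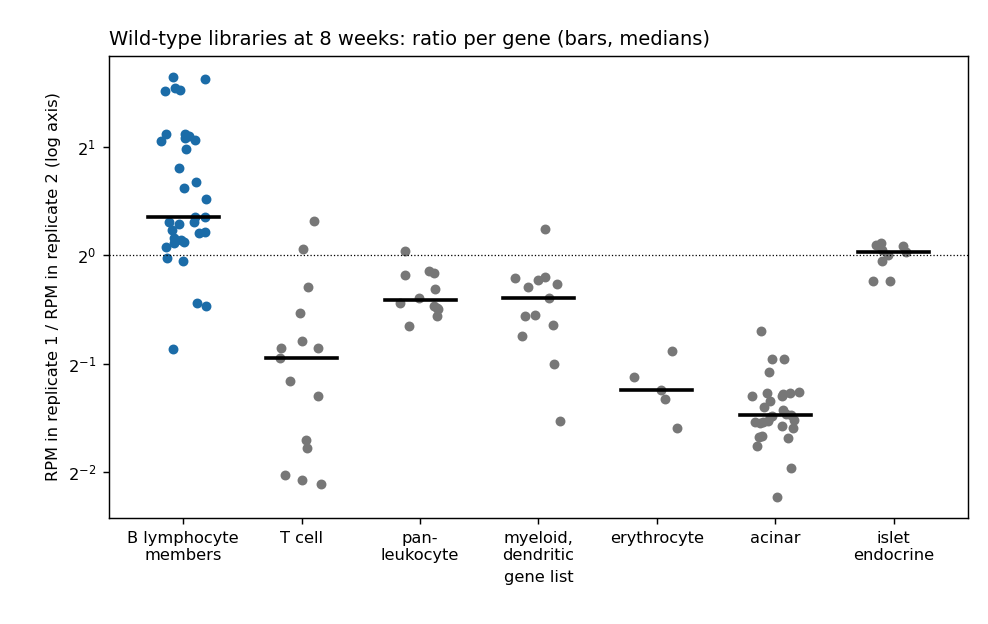
RPM in replicate 1 divided by RPM in replicate 2 of 8-week wild type, on a log axis, 1 point per gene by list, with medians as bars. The median is 1.28 over the members and below 1 over the pan-leukocyte, T cell, myeloid, erythrocyte and acinar lists.

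At 20 weeks no tested member passed the test of genotype. The fold changes came from libraries that did not choose the members. The spread behind the limma p-values came from all 8 libraries, those of 8 weeks included. Of the 17 members tested, limma called 0 higher and 0 lower in knockout-labelled islets. It called 0.03% of the 13347 genes higher and 0.015% lower. By edgeR on the recovered reads 0 members were called, and 0 of all genes in either direction. Of the 17 members 1, Fcrla, reached an unadjusted p under 0.05, as did 582 of all tested genes. The log2 fold changes ran from -0.37 for Cd83 to 0.72 for Fcrla, and the median over all tested genes was -0.04. Of the 17 members 7 (Bank1, Pax5, Ms4a1, Cd79b, Pou2af1, Btla and Irf4) passed the filter through 8-week wild type alone and were at or below 0.429 RPM in every 20-week library. On log2(RPM + 1) these 7 could hardly have been called, so the count of 0 bears mainly on the other 10. The adjusted limma p-values of the members lay between 0.637 and 0.9997. The limma p-values rest on the spread within the groups of all 8 libraries, which may be technical.

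The width of the intervals rests on the spread over all 8 libraries, and so in part on those of 8 weeks. The 8-week wild-type libraries of Bank1, at 9.64 and 4.55 RPM, lay further apart than its 20-week libraries of either group. For Bank1 the log2 fold change at 20 weeks was -0.05 ± 0.24 (limma SE), with a 95% interval from -0.56 to 0.46. For Pax5 it was -0.07 ± 0.26, with an interval from -0.60 to 0.47. Both lay on the log2(RPM + 1) scale, which understates changes of genes with low values, and neither gene exceeded 0.429 RPM at that age. For genes at such levels a difference was hard to detect on this scale. Bach2, which was far above the pseudocount, had 0.27 ± 0.28, with an interval from -0.33 to 0.86, and Cd72 had -0.18 ± 0.19, with an interval from -0.58 to 0.21. Over all 17 members the intervals spanned -0.81 to 1.21.

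Fcrla was the member nearest to a call at 20 weeks. Its fold change was 0.72 ± 0.24, with an interval from 0.23 to 1.21 and an adjusted limma p of 0.637. In a fit of the 20-week libraries alone the adjusted p was 0.0138, in a fit that called 184 genes higher and 86 lower of 13013. Over all alternatives the adjusted p ranged from 0.0138 to 0.99996, and without wild-type replicate 1 the fold change was 0.33. Cd83 was lower in knockout-labelled islets, at -0.37 ± 0.21, and Blnk higher, at 0.39 ± 0.23, and neither passed the test.

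Both knockout-labelled libraries were above both wild-type libraries for 5 of the 34 members, 14.7%, against 11.9% of all genes. These were Faim3, Fcer2a, Fcrla, Blnk and Cd40. Both were below for 4 members, 11.8%, against 15.4% of all genes, and these were Btk, Cd83, Cd72 and Wdfy4. The members' shares were close to those of all genes in either direction.

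**Figure D4:**
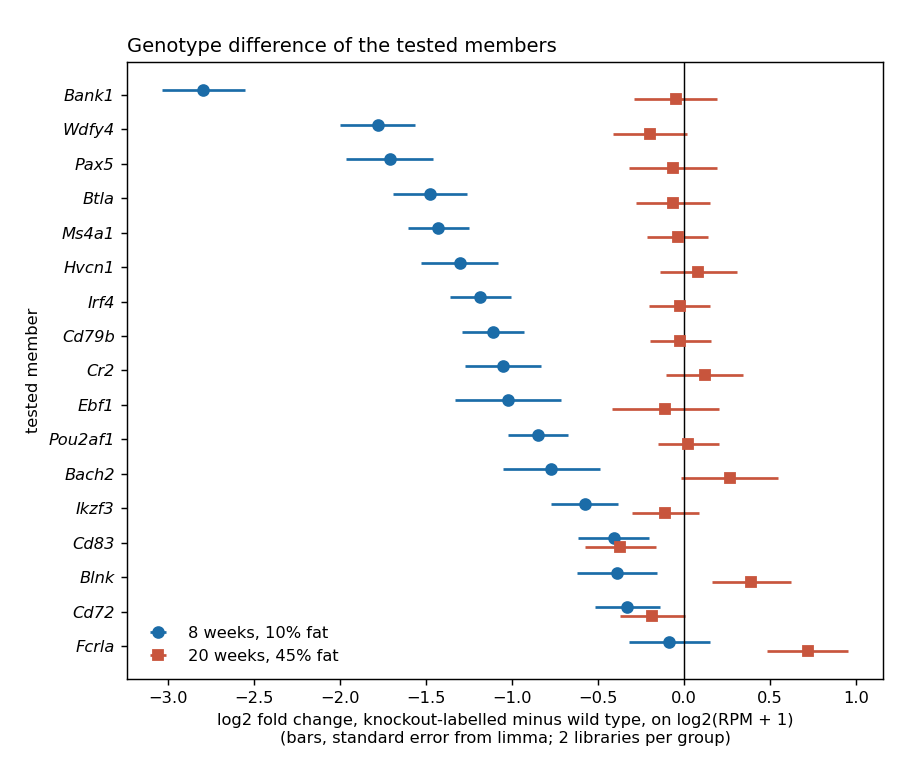
Log2 fold change, knockout-labelled minus wild type, on log2(RPM + 1) for the 17 tested members at 8 weeks (circles) and 20 weeks (squares), with the standard error from limma as bars and 2 libraries per group. At 20 weeks the members lie between -0.37 and 0.72, while at 8 weeks, in the libraries that chose them, they reach -2.79.

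Bank1 and Ms4a1 were called in the difference between the genotype contrasts of 20 and 8 weeks. This difference was 2.75 ± 0.34 for Bank1 and 1.39 ± 0.25 for Ms4a1 (limma SE), where limma called 0.0599% of all genes in that direction. It holds the 8-week contrast that chose the members, so it describes the values above and adds no evidence. The call was lost for both genes by edgeR and by median-of-ratios scaling, which left 0 members called. Each called 3 of all tested genes in that direction.

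Between 8 weeks on low fat and 20 weeks on high fat the members moved in both directions in wild type. Both 20-week wild-type libraries were below both of 8 weeks for 23 members (67.6%), against 14.8% of all genes, and above for 5 members (14.7%), against 37.8% of all genes. The 5 were Cd72, Bach2, Ikzf3, Hvcn1 and Wdfy4. In knockout-labelled islets, 22 members (64.7%) were higher in both 20-week libraries, against 31.5% of all genes, and 2 members, Cd79b and Pou2af1, were lower (5.88%), against 11.7% of all genes. These comparisons share the 8-week libraries that chose the members, and are given as a description. The listed genes also held more of all reads at 20 weeks, 55.7% to 61.2% per library against 41.6% to 51.0% at 8 weeks.

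Of the 17 members that passed the filter, limma called 4 higher and 7 lower at 20 weeks in wild type, where it called 16.9% of all tested genes higher and 1.63% lower. The 4 were Cd72 with a log2 fold change of 2.34, Bach2 with 1.32, Ikzf3 with 1.13 and Hvcn1 with 0.91. The 7 were Bank1 with -2.55, Pax5 with -1.56, Ms4a1 with -1.39, Btla with -1.28, Cd79b with -1.17, Irf4 with -1.03 and Pou2af1 with -0.93. Each of the 7 was at or below 0.429 RPM in the other 6 libraries. They passed the filter through 8-week wild type alone, in the libraries that chose the members, so the choice and the filter fixed these 7 calls. Without either of those libraries the 7 no longer passed the filter and were not tested.

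In knockout-labelled islets limma called 6 members higher and 0 lower, where it called 19.8% of all tested genes higher and 2.22% lower. These were Cd72 with 2.49, Bach2 with 2.36, Hvcn1 with 2.30, Wdfy4 with 2.21, Ikzf3 with 1.60 and Cr2 with 1.06. The median over all tested genes was 0.20 in wild type and 0.15 in knockout-labelled islets, and median-of-ratios scaling moved it to -0.0050 and -0.03. Under that scaling 2748 genes were called higher and 2309 lower in wild type, against 2259 and 217 before, while 3 and 7 members were called in place of 4 and 7. The members were chosen for low values in the 8-week knockout-labelled libraries, so a higher value at 20 weeks is in part built in.

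Several of the members that were high at 20 weeks overlap a gene on the opposite strand. The use of strand in counting was not given in the sources used here, and without strand reads of the overlapping genes cannot be told apart. In the GENCODE M21 annotation of GRCm38, 14 of the 34 members overlap an opposite-strand gene. Such overlap is common, since 7011 of the 13347 tested genes had none, as did 9 of the 17 tested members. For 4 members, exons lie within the span of a gene that is also in the table, for 2 only introns do, and for 8 the overlapping gene is not in the table. In Cd72, 46.0% of the exon bases lie within Tesk1, a kinase gene, and in Hvcn1, 57.1% lie within Tctn1, a gene of the primary cilium. The same share was 3.30% for Cxcr5 within Bcl9l and 0.369% for Cd37 within Tead2, and Wdfy4 carries Lrrc18 within its introns. Bach2 lies within the unlisted Bach2os over 16.0% of its exon bases. All exon bases of Ms4a1 lie within the span of an unlisted gene, but 0 of them overlap that gene's exons. Ikzf3 and Cr2 overlap none.

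The values of the partner genes are given as a description, since the part of their reads in the members' values was not tested. Tesk1 was at 15.0 and 16.1 RPM in 8-week wild type, 14.5 and 16.5 RPM in 8-week knockout-labelled, 15.3 and 15.0 RPM in 20-week wild type and 12.5 and 12.3 RPM in 20-week knockout-labelled libraries, no higher at 20 weeks while Cd72 was. Tctn1 was at 5.77 to 9.33 RPM over the 4 libraries of 8 weeks and at 7.58 to 10.5 RPM over those of 20 weeks, which overlap, while Hvcn1 was higher in all 4 of the latter. Lrrc18 was at 2.51 to 4.21 RPM over the 4 libraries of 8 weeks and at 5.10 to 6.60 RPM over those of 20 weeks, higher in all of the latter, as Wdfy4 was. At 8 weeks Lrrc18 was not low in knockout-labelled libraries, at 3.04 and 4.21 RPM, where Wdfy4 was.

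**Figure D5:**
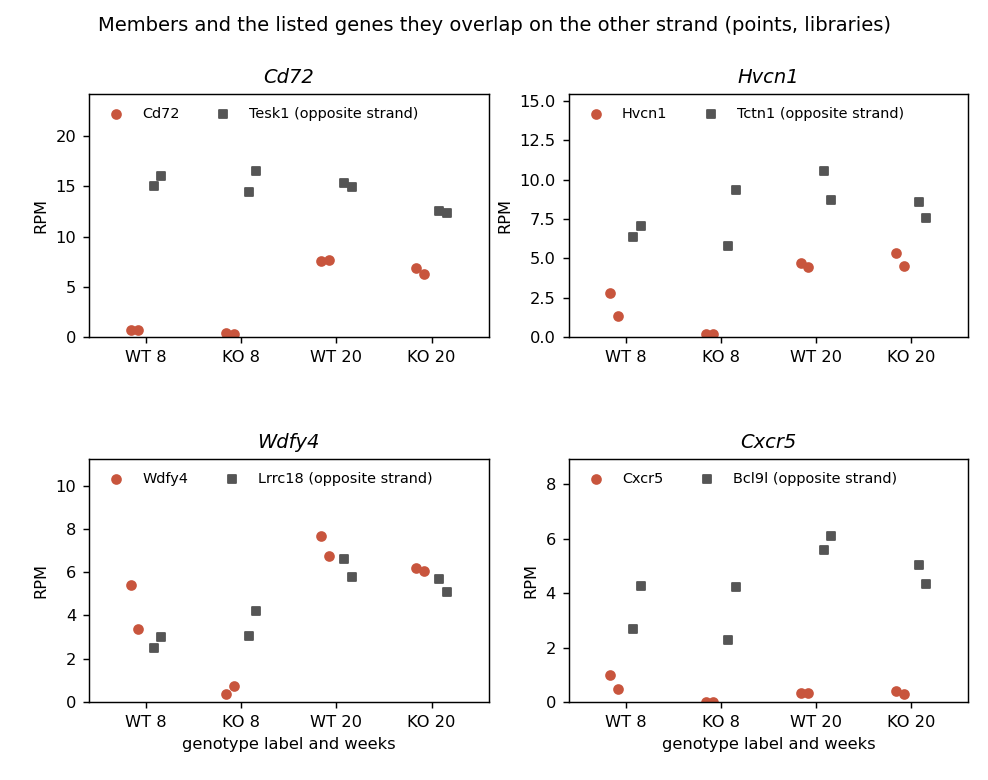
RPM by genotype label and age for 4 members and the listed gene that each overlaps on the other strand, with libraries as points. Tesk1 is not higher at 20 weeks, where Cd72 is, and Lrrc18 is higher at 20 weeks, as Wdfy4 is. The part of opposite-strand reads in the members' values was not tested.

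Over all tested genes, the share called higher at 20 weeks was counted by class of overlap. In wild type limma called 9.84% of the 7011 genes with no opposite-strand gene higher, 28.3% of the 2808 genes with exons in a listed gene's span, 40.8% of the 169 genes with introns only and 20.5% of the 3126 genes with an unlisted partner. In knockout-labelled islets the shares were 11.9%, 30.2%, 49.1% and 25.4%. Cd72 and Hvcn1 belong to the second of these classes, Wdfy4 to the third, Bach2 to the last and Ikzf3 and Cr2 to the first. The part of opposite-strand reads in the members' 20-week values was not tested.

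Other genes of B cells were taken from lists made for their known roles. Of 20 further B cell genes in the table, 16 had both 8-week wild-type libraries above both knockout-labelled ones. Limma tested 10 of them and called 0 in either genotype contrast, with medians of -0.41 at 8 weeks and 0.16 at 20 weeks. Cd180, a Toll-like receptor relative of B cells, was at 1.43 and 0.910 RPM in 8-week wild type, 0.167 and 0.201 RPM in 8-week knockout-labelled, 38.7 and 30.4 RPM in 20-week wild type and 33.9 and 26.6 RPM in 20-week knockout-labelled libraries. Its 8-week knockout-labelled libraries were the 2 lowest and its 20-week libraries the 4 highest, in the order seen for Hvcn1. Cd180 and Gpr183 were called higher at 20 weeks in both genotypes, Cd52 was called higher in knockout-labelled islets and Cd55 lower in wild type, and neither was called in the difference between the genotypes. Cd24a and Bcl11a, the other genes named by level, overlapped between the 8-week groups and were called in no contrast.

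Genes of the signalling pathway behind the receptor were mostly not called. Of 17 genes outside the members that carry receptor signals, 8 had both 8-week wild-type libraries above both knockout-labelled ones. Limma tested 14 and called 0 in the genotype contrasts at 8 or 20 weeks and 0 with age in wild type, with medians of -0.15, -0.06 and 0.17. In knockout-labelled islets 2 were called higher at 20 weeks, the kinase Lyn with a log2 fold change of 1.11 and the transcription factor Nfatc1 with 0.60. Prkcb, a protein kinase C downstream of Btk, was at 136 and 143 RPM in 8-week wild type and at 121 and 157 RPM in knockout-labelled islets, where Cd81 and Grb2 overlapped as well. Many of these genes are also expressed outside leukocytes. Of 8 genes of plasma cells and germinal centres, 3 had both 8-week wild-type libraries above and 2 below.

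Among pan-leukocyte genes, limma tested 8, and called 6 lower in 8-week knockout-labelled islets and 0 in either direction at 20 weeks. Ptprc, which encodes CD45, was at 9.15 and 11.3 RPM in 8-week wild type, 1.59 and 1.86 RPM in 8-week knockout-labelled, 2.62 and 3.33 RPM in 20-week wild type and 1.94 and 3.43 RPM in 20-week knockout-labelled libraries. Its 8-week wild-type libraries were above all others, as those of Bank1 and Pax5 were, but with replicate 2 the higher.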

How the data were processed

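Total RNA of mouse islets was depleted of ribosomal RNA (RiboZero) and sequenced from TruSeq libraries, per the labels' protocols. TopHat 1.4.1, CASAVA 1.8, FastQC and the build mm9 are named in the submitters' processing notes, with no roles. Counting tool, annotation and use of strand were not given in the sources used here. Deposited values are RPM as scaled by the authors. All of them (100%) were whole multiples of 1 read within 0.01 read, which gave the depths and the reads used. The listed genes held 41.6% to 51.0% of each total at 8 weeks and 55.7% to 61.2% at 20 weeks. What this share adds to differences between the ages was not tested.

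The 13347 genes that reached 1 RPM in at least 2 libraries were fitted on log2(RPM + 1) with limma 3.58.1 (R 4.3.3, mean-variance trend) over the 4 groups, with 4 residual and 14.0 prior degrees of freedom. Benjamini-Hochberg adjustment ran over all tested genes, at a threshold of 0.05. Alternatives were edgeR 4.0.16 (quasi-likelihood, TMM) on recovered reads, median-of-ratios scaling, no filter, 5 RPM, a pseudocount of 0.1, no trend, a threshold of 0.10, the compared libraries alone, the acinar mean as covariate and leaving out each library. Replicates differed beyond sampling noise (chi-square per degree of freedom 45.0 to 354), and none was merged. Exact intervals and floors of 3 reads cover counting error only.

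The members and all gene lists were chosen with earlier results of these data known. Members with at least 3 RPM in a library are given in every library, and of other lists the up to 3 genes of highest mean; other named genes, and other members given by library, were chosen after their values were seen. Ighm, Ighd, Igkc, Iglc1 and Syk were not analysed here. Opposite-strand genes came from GENCODE M21 on GRCm38, with 91.7% of identifiers matched, and promoters from RefSeq on GRCm38.p6. Neither is the authors' build, and no coordinates were carried between builds. Tables were joined in Python 3.11.15 with pandas 2.3.3, and plots drawn with matplotlib 3.10.9.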

Additional observations from a re-analysis of the deposited data

Results flagged for a closer look

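The genotype difference at 20 weeks minus that at 8 weeks was 2.75 for Bank1 and 1.39 for Ms4a1 on the log2(RPM + 1) scale, each past the threshold of limma's test of the difference between the ages. Both genes were chosen by their 8-week values, so the difference is a description.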

How the results depend on the processing

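Numbers in brackets are all genes called in the same direction. Members called lower at 8 weeks numbered 8 (26), against 4 (9) with median-of-ratios scaling and 1 (8) with the acinar covariate. At 5 RPM the count was 1 (14), where 6 members and 9965 genes were tested. It was 10 with a pseudocount of 0.1 (29) and at a threshold of 0.10 (38). Members called higher in knockout-labelled islets at 20 weeks numbered 0 (4), against 1 (184) in the 20-week libraries alone. With age and diet in wild type, 4 (2259) were called higher, against 2 (1539) with no filter. In the same contrast 7 (217) were called lower, against 15 (201) with no filter and 0 (95) at 5 RPM. In knockout-labelled islets 6 (2637) were called higher, against 5 (2244) at 5 RPM and 7 (3333) at a threshold of 0.10. The 2 (8) called in the difference between the ages became 0 with median-of-ratios scaling (3), the acinar covariate (1) or edgeR (3). They became 1 at 5 RPM (18) or with no trend (4), 4 (9) with a pseudocount of 0.1 and 6 (12) with no filter. Counts also changed when 1 library was left out, except for the genotype contrast of 20 weeks. These are not given here, since such fits leave 1 library in a group.

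Of the log2 fold changes of the 9 members with at least 3 RPM, 15 values changed sign. With the acinar covariate these were Bach2 (-0.016) and Hvcn1 (-0.084) at 20 weeks, Ebf1 (0.44) with age in wild type and Pax5 (-0.14) with age in knockout-labelled islets. Over the fits without 1 library, Fcrla ranged from -0.17 to 0.0016 at 8 weeks. The genotype contrast of 20 weeks ranged from -0.43 to 0.22 for Ebf1, -0.22 to 0.00038 for Ikzf3, -0.013 to 0.18 for Hvcn1, -0.17 to 0.072 for Bank1 and -0.14 to 0.011 for Pax5. With age in wild type Fcrla ranged from -0.70 to 0.071 and Ebf1 from -0.39 to 0.26. No main value of these was past the threshold, and the cause was not tested. At 20 weeks, 134 of the single-gene values kept direction and side of the threshold.

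No paired analysis was possible because the labels give no replicate numbers shared between groups. With 2 libraries per group the spread is poorly known, and members under 0.5 RPM rest on few reads.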

Other observations

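Igj, the joining chain of secreted antibodies made by plasma cells, was at 0.116 and 4.28 RPM in 8-week wild type and at most 0.0414 RPM in the other 6 libraries. Replicate 2 was thus the higher library for Igj and replicate 1 for Pax5, Bank1 and Cd22. Igj was chosen after its values were seen, and no test was run.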
